A study of Mus musculus with 8 samples.

Results

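Transcripts of 10 feedback inhibitors of the ERK pathway were followed in primary murine cardiac fibroblasts: the dual-specificity phosphatases Dusp1, Dusp4, Dusp5 and Dusp6, the Sprouty genes Spry1, Spry2 and Spry4, and the Sprouty-related genes Spred1, Spred2 and Spred3. They were taken by gene symbol from a table of 22274 genes, and each symbol matched 1 row. The study asked how the transcription factor IRF7 acts on fibroblasts that are being driven to become myofibroblasts. RNA-seq was performed on 4 libraries labelled GFP and 4 libraries labelled OEIRF7. All 8 came from heart fibroblasts that had received TGF-β, at 5 ng/ml for 24 h in the study's methods, so no library shows the level of these genes without TGF-β.

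The GFP libraries are the controls with an empty vector, and the OEIRF7 libraries are those with IRF7 overexpression. The methods name an adenovirus and list one in which the CMV promoter drives a FLAG-tagged human IRF7 with EGFP, but the design text in GEO speaks of an adeno-associated one, and this was not settled here. The labels do not say whether the 4 libraries of a group came from separate cultures or animals. The p-values below thus judge group differences against the spread between these libraries, which may be technical. Mouse Irf7 itself was lower in the libraries labelled OEIRF7, with a mean of 118 ± 24 CPM (read counts scaled to a common depth, SD, n = 4) in the libraries labelled GFP and 15.2 ± 0.822 CPM in those labelled OEIRF7. Counts of mouse transcripts do not show a human transgene. The methods also list an adeno-associated virus that carries mouse Irf7 behind a periostin promoter, whose transcripts such counts could include. The direction of every difference below rests on the labels alone.

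Signals from growth factor receptors pass through Ras and the kinases RAF, MEK and ERK, and active ERK turns on genes whose products switch the pathway off again. DUSP proteins remove phosphate from ERK and related kinases. Sprouty proteins act higher up, between the receptors and RAF, and Spred proteins bind neurofibromin, the product of Nf1, which returns Ras to its inactive form. In cardiac fibroblasts Spry1 is known as a target of the microRNA miR-21 and as a brake on ERK.

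Genes of this set moved in both directions. Spry1 fell 3.18-fold in the libraries labelled OEIRF7 while all 3 Spred genes rose, by 1.17-fold for Spred1, 1.51-fold for Spred2 and 1.74-fold for Spred3. The phosphatases were split: Dusp5 rose 3.22-fold from a low level, Dusp4 rose 1.39-fold and Dusp1 fell 1.44-fold. Dusp6 and Spry4 did not pass the test, which took the libraries as unpaired. Spry4, but not Dusp6, passed it in a fit with the replicate number as a block. All 10 genes passed the filter on low counts, and 8 were called at an adjusted p under 0.05 by edgeR's quasi-likelihood test, 5 higher and 3 lower. These calls stand against a broad background, since 58.9% of the 13533 genes tested were called, 29.0% as higher and 29.9% as lower. Being called was thus common in this comparison. By size, 4 of the 10 (Dusp5, Spry1, Spred2 and Spred3) were called and changed over 1.5-fold, compared with 18.9% of all genes tested. Spred2 lies at the 1.5-fold line: without GFP replicate 2 or GFP replicate 3 it fell under it and 3 of the 10 remained over it, and without OEIRF7 replicate 3 Spred2 fell under the line and Dusp1 passed it. The median log2 fold change of the 10 genes was 0.20, and that of all genes tested was 0.00.

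The stretches of DNA before the start sites of Dusp5 and Spry1, which changed most, and of Dusp1 are shown because they differ in the short motifs they hold. They come from RefSeq on GRCm38.p6, were cut before any annotated exon of the same gene, and are written 5′ to 3′ on the strand of the gene. Capitals mark letters of a searched motif, and bases are counted back from the RefSeq start, which lies past the printed end for Dusp1 and Dusp5. The Dusp1 stretch is chr17:26508520-26508722 on the minus strand, that of Dusp5 is chr19:53528895-53529108 on the plus strand, and that of Spry1 is chr3:37639697-37639946 on the plus strand. The Dusp1 stretch lies inside the annotated span of its gene, which runs up to base 26562128.
Dusp1: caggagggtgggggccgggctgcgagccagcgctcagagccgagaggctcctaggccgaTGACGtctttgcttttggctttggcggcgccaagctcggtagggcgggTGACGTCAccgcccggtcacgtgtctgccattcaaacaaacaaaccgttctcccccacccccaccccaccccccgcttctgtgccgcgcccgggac
Dusp5: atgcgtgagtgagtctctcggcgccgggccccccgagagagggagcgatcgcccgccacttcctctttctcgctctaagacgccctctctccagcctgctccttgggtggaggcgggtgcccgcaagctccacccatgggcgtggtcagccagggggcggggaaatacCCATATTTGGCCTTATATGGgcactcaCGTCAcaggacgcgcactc
Spry1: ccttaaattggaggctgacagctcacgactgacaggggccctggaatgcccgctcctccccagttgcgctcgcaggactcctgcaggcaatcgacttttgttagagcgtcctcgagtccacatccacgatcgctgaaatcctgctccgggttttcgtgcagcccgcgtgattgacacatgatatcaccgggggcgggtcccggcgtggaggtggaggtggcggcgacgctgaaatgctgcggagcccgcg

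The search covered the 250 bases before the start, on both strands, in the 8 of the 10 genes that had a window (Dusp4 and Spry4 had none) and in 32851 windows overall. Dusp1 held the cAMP response element TGACGTCA at bases -143 to -136 from the start, a motif found in 1.55% of all windows. Its first 5 letters, TGACG, which are also counted within that element, were present in Dusp1, Dusp5 and Spred2 and in 17.8% of all windows. Dusp5 held a pair of adjoining CArG boxes, the motif bound by serum response factor, at bases -82 to -73 and -72 to -63, and 1.47% of all windows held at least 1. None of the 8 windows held the AP-1 letters TGANTCA (6.75% of all windows), the ETS letters CCGGAAG (6.91%), the IRF letters GAAANNGAA (7.13%) or the SMAD palindrome GTCTAGAC (0.167%). The capitals in the Spry1 stretch are absent because none of these letters occurred there. The bases G and C made up 55.6% (Spred3) to 70.8% (Spred1) of the 8 windows, with 68.4% in Dusp1 and 64.0% in Dusp5. Their median over all windows was 52.4%, and the shares given for all windows are not matched for this. These are matches of letters and were not tested for binding.

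Dusp1 encodes a nuclear phosphatase that acts on p38, JNK and ERK, and lies at chr17:26505590-26562128 on the minus strand of GRCm38. In CPM scaled by the trimmed mean of M-values, it measured 88.4, 78.8, 99 and 86.9 in the libraries labelled GFP and 55.6, 55.8, 68.4 and 65.0 in those labelled OEIRF7. Every OEIRF7 library lay below every GFP library. On the log2 scale this was a fold change of -0.53 (SE 0.074, adjusted p = 2.22e-05 by edgeR's quasi-likelihood test). Between the groups that were compared, 53.8% of all genes tested had no overlap, and 7 of the 10 genes here had none, 5 higher and 2 lower. With 4 libraries against 4, the exact two-sided permutation test gives 0.0286 for any gene without overlap, which is the smallest p it allows.

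Dusp4, another nuclear phosphatase, encoded at chr8:34807297-34819894 on the plus strand, moved the other way. It measured 138, 130.5, 144 and 146 CPM in the libraries labelled GFP and 185, 189.9, 201 and 199.6 CPM in those labelled OEIRF7, again without overlap. Its log2 fold change was 0.47 (SE 0.042, adjusted p = 2.17e-07 by the same edgeR test).

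Dusp5, a nuclear phosphatase specific for ERK, had the highest fold change of the 10 and the lowest level. It had 55, 55, 53 and 66 counts in the libraries labelled GFP and 175, 191, 194 and 193 counts in those labelled OEIRF7. As CPM these were 2.05, 2.20, 2.15 and 2.52 against 6.78, 6.58, 7.62 and 7.83, so the lowest OEIRF7 library was well above the highest GFP library. This was a log2 fold change of 1.69 (SE 0.121, 95% interval 1.43 to 1.95, adjusted p = 2.08e-08 by edgeR), a size that exceeded 97.2% of the genes tested. Dusp5 is at chr19:53529109-53542431 on the plus strand of GRCm38, and 547 of its exon bases are shared with an annotated antisense gene that has no row in the table.

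Dusp6, at chr10:99263231-99267489 on the plus strand, encodes the cytoplasmic phosphatase for ERK and is widely used as a readout of ERK activity. It measured 22.7, 20.1, 22.2 and 25.9 CPM in the libraries labelled GFP and 22.4, 23.8, 24 and 25.7 CPM in those labelled OEIRF7. The groups overlapped over most of their range. Its log2 fold change of 0.08 had a 95% interval from -0.08 to 0.23 and an adjusted p of 0.392 by edgeR, so increases above 1.18-fold lay outside the interval. The plot of CPM by library shows these 4 phosphatases beside the other genes.

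**Figure D1:**
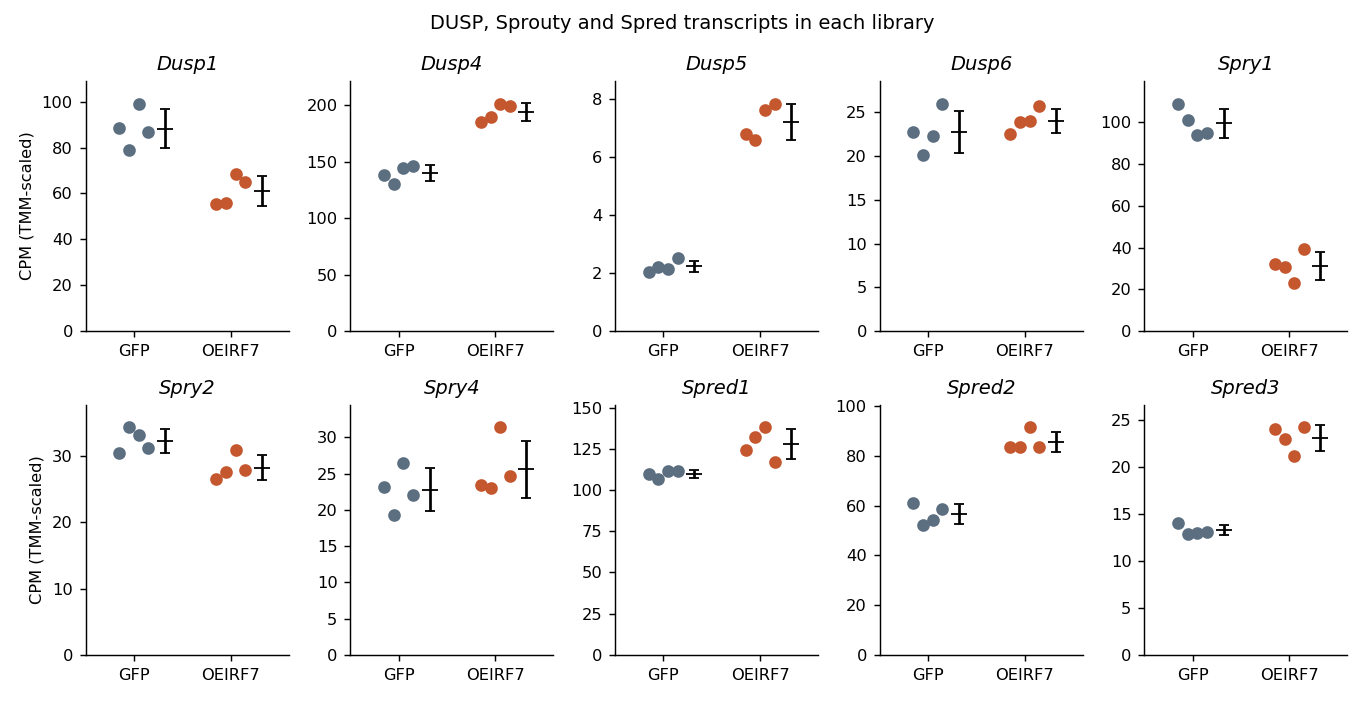
Each panel shows 1 gene, with CPM (scaled by the trimmed mean of M-values) on a linear axis from 0 and 1 point per library, replicates 1 to 4 from left to right; the bar gives the mean and SD of the 4 libraries of a group. The GFP and OEIRF7 points are apart for 7 genes, the widest separations being those of Dusp5 and Spry1, and overlap for Dusp6, Spry2 and Spry4.

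Spry1 showed the largest fall of the 10 genes. It measured 109, 101, 93.8 and 94.7 CPM in the libraries labelled GFP and 32.4, 30.7, 22.9 and 39.3 CPM in those labelled OEIRF7. The groups were far apart, but the OEIRF7 libraries also differed among themselves, with an SD of 21.6% of the mean, the largest of the 20 groups of values. With all libraries the log2 fold change was -1.67 (SE 0.109, 95% interval -1.90 to -1.44, adjusted p = 7.82e-09 by edgeR). It was -1.55 without OEIRF7 replicate 3 and -1.80 without OEIRF7 replicate 4, the libraries with the lowest and the highest value of the group. Spry1 is at chr3:37639947-37644598 on the plus strand, and 710 of its exon bases are shared with a gene model on the opposite strand that has no row in the table.

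Spry2, at chr14:105891947-105896819 on the minus strand, encodes a Sprouty protein that binds the adaptor Grb2 and the ubiquitin ligase Cbl. It measured 30.5, 34.3, 33.1 and 31.2 CPM in the libraries labelled GFP and 26.5, 27.6, 31.0 and 28.0 CPM in those labelled OEIRF7. OEIRF7 replicate 3 reached into the GFP range. A log2 fold change of -0.19 passed the edgeR test (SE 0.059, adjusted p = 0.0123), while the exact two-sided permutation test gave p = 0.0571.

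Spry4, which ERK signalling itself induces in many cells, measured 23.1, 19.3, 26.5 and 22 CPM in the libraries labelled GFP and 23.4, 23.1, 31.4 and 24.6 CPM in those labelled OEIRF7. Replicate 3 was the highest library in both groups. The log2 fold change was 0.17 with a 95% interval from -0.05 to 0.39 and an adjusted p of 0.177 by edgeR, and the exact permutation test gave p = 0.343. In an edgeR fit with the replicate number as a block, the adjusted p was 0.0232, so this call depends on whether the libraries are taken as paired.

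The Spred genes, whose products share a Sprouty-type domain and hold back the step from Ras to RAF, were all called higher. Spred1 (chr2:117121374-117182279, plus strand) measured 109.5, 107, 111 and 112 CPM in the libraries labelled GFP and 124, 132, 138 and 117 CPM in those labelled OEIRF7. The GFP libraries were tightly placed (SD 2.32) and the OEIRF7 libraries more scattered (SD 9.19), without overlap. Spred1 had a log2 fold change of 0.22 (SE 0.047, adjusted p = 0.000858 by edgeR).

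Spred2 (chr11:19924375-20024026, plus strand) measured 61.2, 52.4, 54.2 and 58.9 CPM in the libraries labelled GFP and 83.5, 83.7, 91.5 and 83.4 CPM in those labelled OEIRF7. OEIRF7 replicates 1, 2 and 4 lay within 1 CPM of each other and replicate 3 above them. The log2 fold change was 0.59 (SE 0.052, adjusted p = 1.67e-07 by edgeR), just over the 1.5-fold line, and it was 0.56 without that library, 0.56 without GFP replicate 2 and 0.57 without GFP replicate 3, each under the line.

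Spred3 (chr7:29158829-29170411, minus strand) measured 14.1, 12.9, 13.0 and 13.1 CPM in the libraries labelled GFP and 24, 22.9, 21.1 and 24.2 CPM in those labelled OEIRF7. No OEIRF7 library came near the GFP range. Its change on the log2 scale was 0.80 (SE 0.065, 95% interval 0.66 to 0.94, adjusted p = 8.16e-08 by edgeR).

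**Figure D2:**
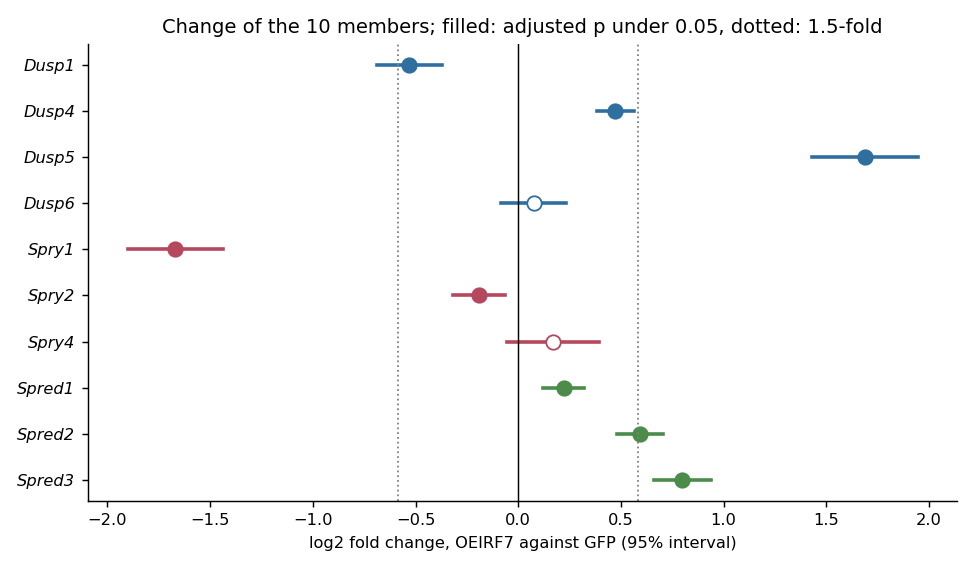
The log2 fold change (OEIRF7 against GFP) of each of the 10 genes with its 95% interval from edgeR is on the horizontal axis, filled where the adjusted p was under 0.05, with dotted lines at 1.5-fold. Dusp5 at 1.69 and Spry1 at -1.67 lie farthest from 0 on opposite sides, and the intervals of Dusp6 and Spry4 include 0.

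OEIRF7 replicate 3 held the highest value of its group for 6 of the 10 genes (Dusp1, Dusp4, Spry2, Spry4, Spred1 and Spred2) and the lowest for Spry1 and Spred3. GFP replicate 2 held the lowest value of its group for 7. With any of the 8 libraries left out, 5 genes were called higher and 3 lower. Total counts were 24888589 to 27095611 in the libraries labelled GFP and 24454801 to 28658826 in those labelled OEIRF7.

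Levels of different genes were compared as FPKM, which divides the fragments of a gene by its length and by the depth. In the libraries labelled GFP the order was Dusp4 (50.5 ± 2.51 FPKM), Dusp1 (44.9 ± 3.83) and Spry1 (39.7 ± 2.80), whose neighbours in this order overlapped. Spred1 followed at 18.4 ± 0.357, then Spry2 at 15.3 and Spred2 at 15.1, which also overlapped each other. Dusp6 (8.07), Spry4 (4.74), Spred3 (3.24) and Dusp5 (0.893) came last, each apart from the next.

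In the libraries labelled OEIRF7 Dusp4 stood alone at the top with 71.4 ± 2.53 FPKM, above Dusp1 with 32.1 ± 2.80. Spred2 (23.3) and Spred1 (21.9) came next and overlapped. Spry1, at 12.7 ± 2.78 FPKM, now overlapped both Spry2 (13.7) and Dusp6 (8.67). Spred3 (5.74) overlapped Spry4 (5.43), and Dusp5 remained the lowest at 2.94 FPKM.

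Added up by family, the Sprouty transcripts were 59.7 ± 2.41 FPKM in the libraries labelled GFP and 31.8 ± 1.96 FPKM in those labelled OEIRF7, a ratio of 0.533. Spry1 made up 26.9 of the difference of 27.9 FPKM. The Spred total was 36.8 ± 1.51 FPKM and 50.9 ± 2.13 FPKM, a ratio of 1.38, with ranges of 34.7 to 38.2 and 49.1 to 53.9. The Sprouty total was thus above the Spred total in every GFP library and below it in every OEIRF7 library. The total of the 4 phosphatases was 104 ± 6.23 and 115 ± 5.77 FPKM, with ranges of 96.6 to 111 and 109 to 121 that overlapped.

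The make-up of each family differed between the groups as well. Spry1 was 66.4% ± 2.30 of the Sprouty total in the libraries labelled GFP and 39.8% ± 6.86 in those labelled OEIRF7, where Spry2 was 43.1% and Spry4 17.1%. Among the phosphatases Dusp1 and Dusp4 were close in the libraries labelled GFP, at 43.0% ± 1.70 and 48.4% ± 1.06, and apart in those labelled OEIRF7, at 27.9% ± 1.11 and 62.1% ± 0.974. Dusp5 was 0.857% and 2.55% of that total, so its large fold change added little to the family's level. Spred1 went from 50.2% to 43.0%, Spred2 from 41.0% to 45.7% and Spred3 from 8.80% to 11.3%. These shares are descriptions without a test.

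**Figure D3:**
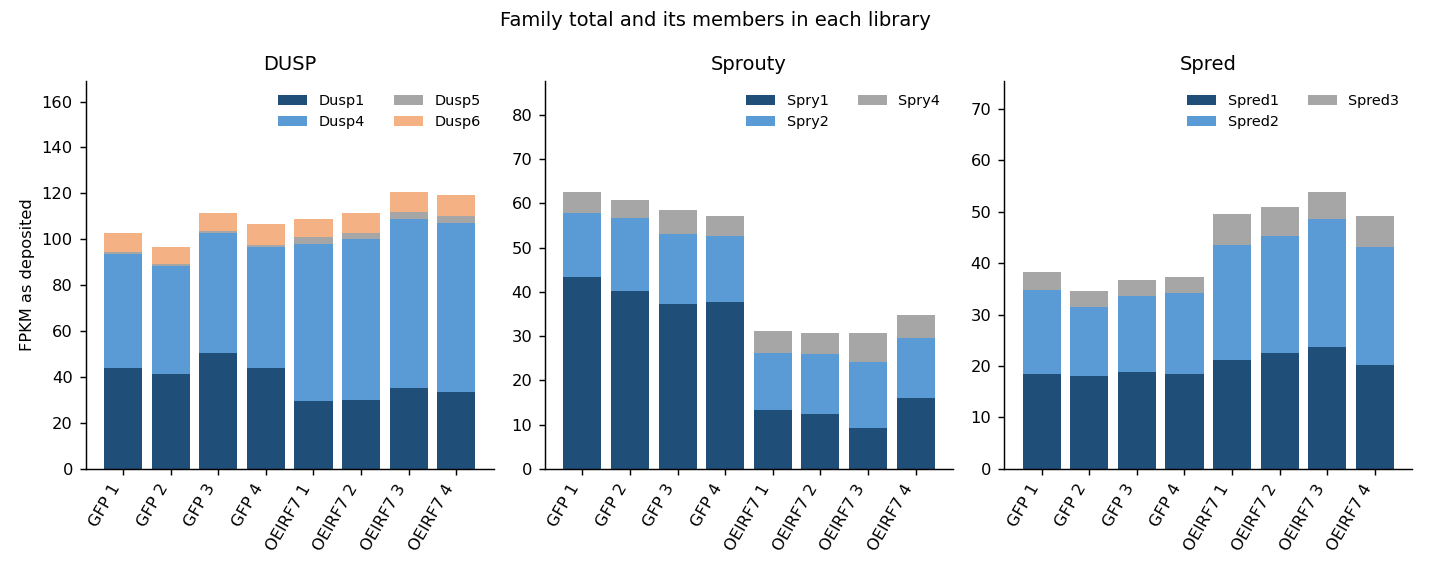
Stacked bars give the FPKM of each gene in each of the 8 libraries, by family, on axes that start at 0. The Sprouty bars fall from 57.1 to 62.6 FPKM in the GFP libraries to 30.7 to 34.8 FPKM in the OEIRF7 libraries through the Spry1 segment, while the Spred bars are taller in every OEIRF7 library.

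Whether paralogs changed differently was tested on the difference of their log2 CPM within each library, over the 12 pairs inside the families. In 11 of the 12 pairs the difference separated the groups without overlap, at the smallest p the exact two-sided permutation test allows (0.0286, or 0.0312 adjusted over the 12 pairs). The pairs share 10 genes and are not independent. How many other gene pairs would separate in this way was not computed, and 53.8% of the single genes tested had no overlap. Spry1 minus Spry2 was 1.84, 1.55, 1.5 and 1.60 log2 units in the libraries labelled GFP. It was 0.29, 0.15, -0.44 and 0.49 in those labelled OEIRF7. The shift was -1.5 (95% interval -2.02 to -0.98). CPM is not scaled by length, so the sign of such a difference does not rank the genes by level. As FPKM, Spry2 was above Spry1 in OEIRF7 replicate 2 (13.39 against 12.48) and OEIRF7 replicate 3 (14.87 against 9.26). Against Spry4 the shift of Spry1 was -1.86.

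Dusp1 against Dusp4 shifted by -1.0 log2 units (95% interval -1.17 to -0.84), and Dusp1 against Dusp5 by -2.19, the widest of the 12. Relative to Dusp6, which did not pass the test on its own, Dusp5 shifted by 1.58, Dusp4 by 0.39 and Dusp1 by -0.61. Spry2 and Spry4, both with small changes, differed by a shift of -0.36 (95% interval -0.67 to -0.05). Spred1 shifted by -0.38 against Spred2 and by -0.58 against Spred3. Spred2 against Spred3 was the pair that overlapped, with a shift of -0.20, a 95% interval from -0.40 to 0.01 and an exact permutation p of 0.0857.

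**Figure D4:**
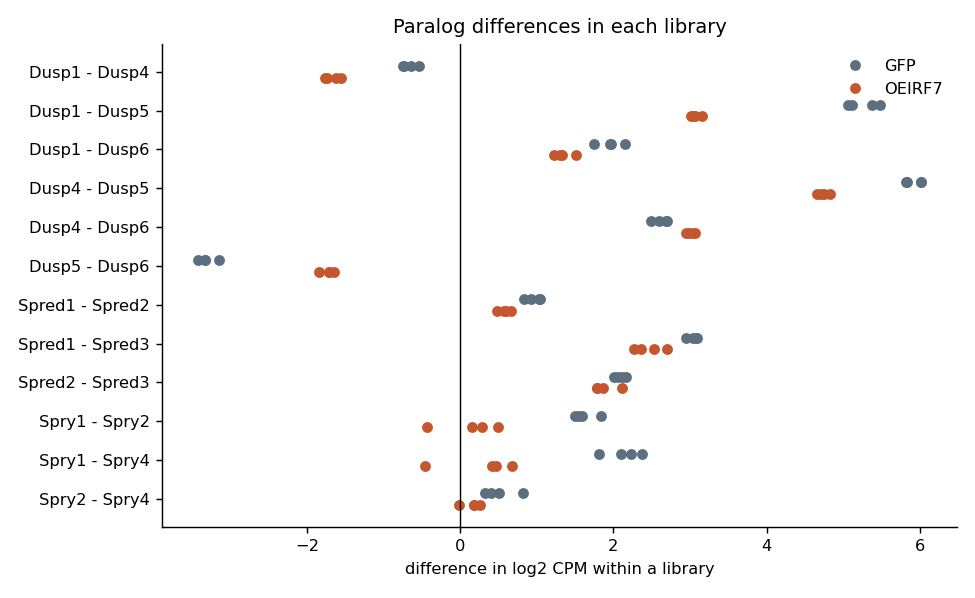
For each of the 12 pairs, points give the log2 CPM of the first gene minus that of the second in each library, coloured by group. The GFP and OEIRF7 points are apart for every pair except Spred2 minus Spred3.

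The genes around these inhibitors were counted in 9 lists of the pathway, written by role. Of 88 listed genes 87 were tested, 43 were called higher and 27 lower, or 80.5% against the 58.9% of all genes. The lists were written with earlier results of these data known, and their counts describe them without a set test.

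The first list held other phosphatases of MAP kinases. Of 6 tested, 4 were called higher and 2 were not called, with a median log2 fold change of 0.87. Dusp10, which acts on JNK and p38, went from 11.7 ± 1.11 to 25.4 ± 2.53 CPM (log2 fold change 1.12), and Dusp16, a JNK phosphatase, from 27.1 ± 1.35 to 41.6 ± 3.69 CPM (0.62). Dusp2 (2.49) and Dusp9 (2.05) had larger fold changes but few counts, and both are among the 4 called and enter the median. Dusp2 had 6 to 10 counts per library labelled GFP and 37 to 55 per library labelled OEIRF7, and Dusp9 had 11 to 24 and 57 to 82, so both reached 1 CPM through the OEIRF7 libraries alone. With at least 10 counts required in every library, 3 of the list were called higher. Dusp7, a cytoplasmic relative of Dusp6, had a log2 fold change of -0.01 and was not called.

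Of 11 other inhibitors tested, 7 were called higher and 2 lower, with a median of 0.22. Errfi1, an inhibitor of the EGF receptor, went from 36.0 ± 2.56 to 93.9 ± 7.58 CPM (1.38). Rassf1 was higher by 0.82, and the Ras GTPase-activating proteins Rasa1 and Rasa2 by 0.63 and 0.51. Nf1, the partner of the Spred proteins, was called higher with a log2 fold change of 0.18. Il17rd, also known as Sef, had a value of 0.03 and was not called.

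The kinases and their inputs were mixed. Of 8 RAF, MEK and ERK kinases 2 were called higher and 4 lower, with a median of -0.11. Braf had a log2 fold change of -0.76, Map2k1 of 0.69, Araf of -0.33 and Map2k2 of -0.26. Mapk3, which encodes ERK1, had a value of 0.10 and an adjusted p of 0.0568 by edgeR. Of 12 genes for Ras and its adaptors 3 were called higher and 6 lower, with a median of -0.06, led by Nras at -1.0, Gab2 at 0.68, Gab1 at -0.60 and Sos2 at -0.41.

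Of 12 receptor tyrosine kinases 4 were called higher and 7 lower, with a median of -0.20. Fgfr1 went from 273 ± 14.3 to 582 ± 30.6 CPM (1.09) and Egfr from 99.2 ± 7.88 to 167 ± 4.37 CPM (0.75). Fgfr2 fell by 1.72 on the log2 scale, from a lower level of 6.79 ± 0.463 CPM, and Insr by 0.73.

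Downstream of ERK, 11 of 12 immediate early genes were called higher and 1 lower, with a median of 1.09. Fosl1 went from 8.02 ± 1.02 to 37.1 ± 4.83 CPM (2.21), and Ier3 from 74.8 ± 13.3 to 211 ± 46.5 CPM (1.5). Egr2 (1.62) and Fosb (1.55) rose from 4.29 and 2.05 CPM, and the 1 gene called lower was Srf (-0.23), which encodes serum response factor and was looked up after its value was seen. That call was lost with limma on FPKM, where 0 of the list were called lower. These genes are also induced by other kinases. A known signature of ERK output includes Spry2, Spry4, Dusp4 and Dusp6. Of its 6 genes outside the set described here 3 were higher and 2 lower, with a median of 0.09: Etv4 (1.29) and Phlda1 (0.55) rose, while Epha4 (-0.52) and Ccnd1 (-0.47) fell. The remaining gene called higher had an adjusted p of 0.0463 by edgeR, and its groups overlapped. With libraries left out in turn, 2 to 3 genes of this signature were called higher.

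Of 11 genes for ERK substrates 6 were called higher and 1 lower (median 0.21), with Ets2 at 0.79, Elk4 at 0.46, Rps6ka2 at -0.33 and Mknk2 at 0.23. The call of Rps6ka2 was lost with limma on FPKM. Erf, a repressor that ERK exports from the nucleus, had a value of 0.01 and was not called. Of 9 genes for JNK and p38 kinases and the MAP kinase kinases above them, 3 were called higher and 4 lower (median -0.01), among them Mapk11 at 1.05, Map2k3 at 0.65, Mapk14 at -0.44 and Map2k7 at -0.37.

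**Figure D5:**
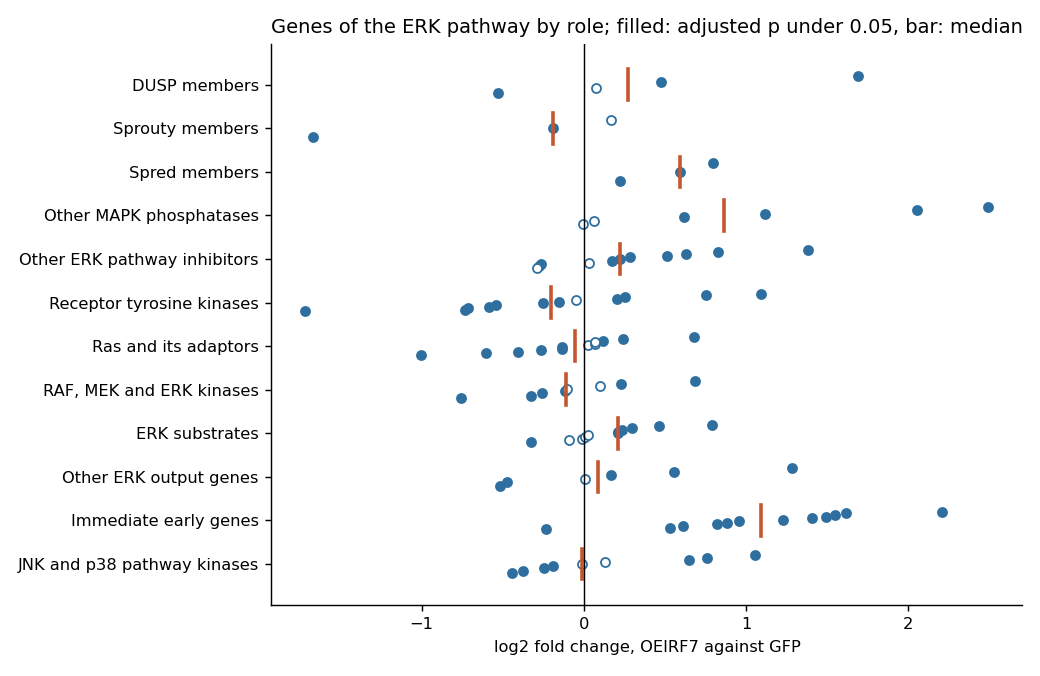
Each point is the log2 fold change (OEIRF7 against GFP, from edgeR) of 1 tested gene of a list, filled where the adjusted p was under 0.05, and the bar is the list's median. The median of the immediate early genes is 1.09, while those of the kinases and receptors lie between -0.20 and 0. That of the other MAP kinase phosphatases is 0.87, with Dusp2 and Dusp9, which had few counts, included.

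The libraries are bulk samples, in which fewer cells of a type and less RNA per cell cannot be told apart. Summed FPKM of 10 fibroblast markers was 3404 to 3448 in the libraries labelled GFP and 3376 to 3598 in those labelled OEIRF7, with 2 called higher and 5 lower. Vim had the highest mean level of them and went from 1153 to 1369 FPKM. Tcf21, which the paper names as a label of quiescent cardiac fibroblasts, went from 44.9 to 18.2 FPKM, and Col3a1 from 305 to 213 FPKM. The sum thus does not show that these markers were unchanged. Of 7 cardiomyocyte markers 5 were below 0.1 FPKM in both groups, and the sum was 8.80 to 12.3 and 6.79 to 9.25 FPKM. Nearly all of it was Tnnt2, with means of 10.2 and 7.31 FPKM. It was the only 1 of the 7 tested and was called lower. The 6 macrophage markers summed to 178 to 209 and 219 to 250 FPKM, with 4 called higher and 2 not called. The 6 endothelial markers summed to 62.3 to 66.2 and 66.2 to 73.1 FPKM, with 3 higher and 1 lower, the 6 mural markers to 9.08 to 10.03 and 10.7 to 13.3, with 2 higher and 2 lower, and the 6 epicardial markers to 48.2 to 50.3 and 39.8 to 47.2, with 2 higher and 2 lower. Sums hid opposite changes in these lists too. Among epicardial markers Krt19 rose 3.89-fold and Upk3b fell 2.49-fold, and among mural markers Cspg4 rose 2.83-fold and Notch3 fell 3.05-fold. Calls were common among all genes tested as well, at 58.9%. The part of these cells in the differences above was not tested.

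The study's methods name a kit for stranded libraries, but labels and methods differ on the kits. The strand setting of the counting is not given in the sources used here. Dusp1 shares 11 exon bases with Ergic1 on the opposite strand, which had 5829 to 6519 counts in the libraries labelled GFP and 3923 to 4376 in those labelled OEIRF7. Spred3 shares 202 exon bases with Ggn, which had 28 to 42 counts. Reads from such shared bases cannot be assigned with certainty.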

How the data were processed

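Per the study's methods, trimmed reads were aligned to GRCm38 by HISAT2, and HTSeq-count gave the raw counts per gene that the authors deposited. FPKM deposited beside them came from Cufflinks and are scaled by length and depth. Tool versions and the strand setting are not given in the sources used here, and labels and methods differ on the kits. The table's group means, log2 ratios, p-values and FDR hold the authors' own comparison and were not used.

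Here the counts were fitted with edgeR 4.0.16 (R 4.3.3): filterByExpr by group (13533 of 22274 genes; 3816 had no count), TMM (factors 0.989 to 1.01) and glmQLFit with glmQLFTest on the 2 groups without covariates, with Benjamini-Hochberg adjustment over all tested genes. The fit was tested on simulated data. Log2 CPM used a prior count of 2. Single genes and paralog differences were also tested by exact two-sided permutation. All replicates differed beyond sampling noise. Dusp5 rests on 53 to 66 counts per GFP library.

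Alternatives were DESeq2 1.42.0, other scalings and filters, the replicate number as a block, limma 3.58.1 on FPKM and leaving out each library. The genes and lists were chosen with earlier results of these data known. In each list, at most 4 genes with the largest called change, no overlap and over 1 CPM in a group were named, plus direct partners of the 10 genes and Irf7; some of these are not reported here. Positions are from GENCODE M21, and promoters from RefSeq.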

Additional observations from a re-analysis of the deposited data

Results flagged for a closer look

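Each group of 4 values of the 10 genes was searched for a library far from the others, by Dixon's ratio of the gap to the nearest library to the whole range at the 95% critical value. Chance exceeds it in about 1 in 20 groups, and 2 of 20 did so here. Spred2 in OEIRF7 replicate 3 was 91.5 CPM, with the nearest library of its group at 83.7 CPM. Spred3 in GFP replicate 1 was 14.1 CPM, with the nearest at 13.1 CPM. Without these libraries the log2 fold changes were 0.56 for Spred2 and 0.83 for Spred3, and both stayed called by edgeR's quasi-likelihood test.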

How the results depend on the processing

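Of 160 recomputed fold changes of the 10 genes 159 kept direction and side of the threshold. So did 24 of 24 paralog differences recomputed with a test, and 96 of 96 recomputed without a library, which have no test, kept their direction. The exception was Spry4 with a replicate block, at 0.17 with an adjusted p of 0.0232 by edgeR; it made 6 genes called higher and changed no other of the 10 calls. The replicate numbers did not meet the rule for pairing, a minimum correlation of 0.1. The residuals of same-numbered libraries correlated at 0.0792, 0.0953, 0.138 and 0.104. Each same-numbered library was still the best partner, and no correlation with another number exceeded 0.0476. Whether the libraries were paired is thus not settled. The block gave 4057 genes higher and 4154 lower over all genes. With limma on log2(FPKM + 1) or log2(FPKM + 0.1), the genes called higher for Ras and its adaptors became 5, the ERK substrates called lower 0 and the immediate early genes called lower 0, and the cause was not tested. Dusp5 was 1.06 on the log2(FPKM + 1) scale, which understates changes of low genes. The other 346 recomputed counts stayed within 1.5 times. Leaving out libraries in turn moved Spry1 from -1.80 to -1.55 and Dusp5 from 1.65 to 1.75.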
